A study of Homo sapiens with 4 samples.

Results

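The 10 genes described here encode the enzymes that make leukotrienes and prostaglandins, together with the protein that presents arachidonic acid to 5-lipoxygenase. They were chosen by name as the core of eicosanoid synthesis (ALOX5, ALOX5AP, LTA4H, LTC4S, PTGS1, PTGS2, HPGDS, TBXAS1, PTGES and PLA2G4A), and all 10 were found among the 60662 genes of the table. The study compared NB4 cells, an acute promyelocytic leukemia line, after lentiviral transduction with an empty vector (2 libraries) or with a vector expressing JMJD3, the histone H3 lysine 27 demethylase encoded by KDM6B (2 libraries). The vectors carried GFP, and GFP+ cells had been sorted, so the libraries represent transduced cells of a single line under forced expression. The deposited gene counts, divided by an inferred scale factor for each library, summed to 34190262 and 38947060 fragments in the vector libraries and 35431638 and 41876210 fragments in the JMJD3 libraries. These sums cover fragments assigned to genes and are not sequencing depths. The comparison asks how RNA levels in these cells changed with JMJD3 overexpression. No source says that libraries of the same group were transduced separately, so p-values measure only the spread between these libraries, which may be technical.

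Eicosanoid synthesis begins when cytosolic phospholipase A2 frees arachidonic acid from membranes. The 5-lipoxygenase branch turns it into leukotriene A4, which becomes the neutrophil attractant leukotriene B4 or, after addition of glutathione, the cysteinyl leukotrienes of mast cells, basophils and eosinophils. The cyclooxygenase branch makes prostaglandin H2, from which separate synthases form prostaglandin D2, prostaglandin E2 and thromboxane A2.

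KDM6B checked the labels of the libraries. It stood at 15.7 and 13.7 CPM (the share of a library's counts, scaled between libraries with TMM) with the empty vector and at 37.8 and 44.1 CPM with JMJD3. Both JMJD3 libraries were above both vector libraries, by 1.48 on the log2 scale (SE 0.13, adjusted p = 0.0011, edgeR's quasi-likelihood test). These counts cannot separate the vector's transcript from the cell's own.

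Of the 10 synthesis genes, 6 had enough counts to be tested with edgeR's quasi-likelihood test among 15246 genes. LTC4S was higher with JMJD3 and PLA2G4A was lower, while ALOX5AP, LTA4H, PTGS1 and TBXAS1 did not pass an adjusted p of 0.05. The background was large, since 21.6% of all tested genes were higher and 19.1% were lower by the same rule. The 1 higher and 1 lower gene among 6 are therefore no more than the table as a whole would give. None of the 6 passed the test with a change of at least 2-fold, against 7.55% of tested genes that did so upwards and 2.82% downwards. At an unadjusted p under 0.05 the count at 2-fold was also 0 with edgeR, and it was 0 with DESeq2 and with limma. The CPM values of the groups did not overlap for 5 of the 6 genes, against 74.4% of all tested genes. The median log2 fold change was 0.13 over the 6 genes and 0.04 over all tested genes. The plot of CPM in each library shows the 6 genes side by side.

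**Figure D1:**
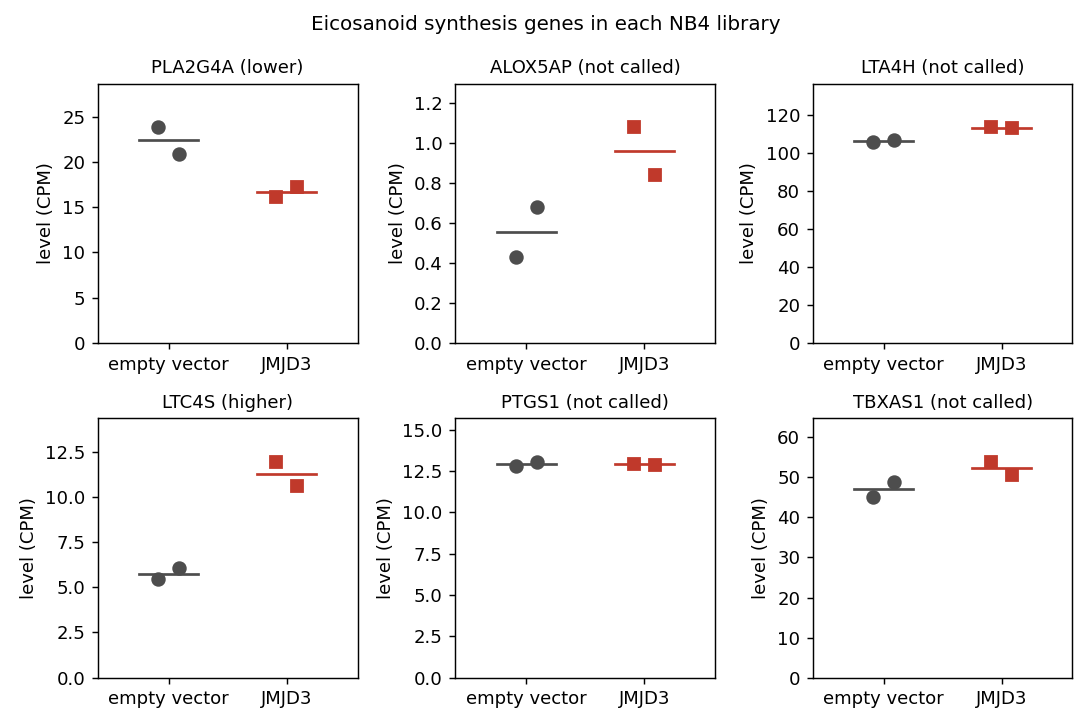
Levels of the 6 tested synthesis genes in CPM, with 1 point per library and a line at the mean of each group (2 libraries each, axes from 0). LTC4S lies at 5.45 and 6.05 CPM with the empty vector and at 12.0 and 10.6 CPM with JMJD3, whereas the PTGS1 points of both groups lie between 12.8 and 13.1 CPM.

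The promoters of the genes that passed the test are shown because only these 2 of the 10 changed by that measure. A RefSeq promoter was found for 9 of the 10 genes, and ALOX5 had no match. Each sequence is the 250 bases before a RefSeq start, 5′ to 3′, from build GRCh38.p14. The LTC4S stretch is chr5:179793736-179793985 on the plus strand, next to a gene that spans chr5:179793986-179796647. The PLA2G4A stretch is chr1:186828699-186828948 on the plus strand, next to a gene that spans chr1:186828949-186988981. Capitals mark matches to the motifs searched.
LTC4S: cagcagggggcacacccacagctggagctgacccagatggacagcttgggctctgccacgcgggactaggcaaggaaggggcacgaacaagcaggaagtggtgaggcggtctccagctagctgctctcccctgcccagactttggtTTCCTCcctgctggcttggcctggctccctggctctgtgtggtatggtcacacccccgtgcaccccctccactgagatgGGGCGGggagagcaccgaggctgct
PLA2G4A: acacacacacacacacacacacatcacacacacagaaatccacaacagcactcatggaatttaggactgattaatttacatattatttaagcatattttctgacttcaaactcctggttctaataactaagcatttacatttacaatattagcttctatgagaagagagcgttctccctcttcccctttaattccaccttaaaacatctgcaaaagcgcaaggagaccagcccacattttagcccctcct

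Both strands were searched for GGGCGG (SP1), TTGCNNAA (C/EBP), GAGGAA (PU.1) and AGGTCA (a retinoid receptor binding unit). The LTC4S stretch held GGGCGG from 25 to 20 bases before the start and GAGGAA on the minus strand from 104 to 99 bases before it, and the matches did not overlap. The PLA2G4A stretch held none of the 4 sets of letters. Of 35116 promoters of the same length, 42.6% held the SP1 letters, 9.05% the C/EBP letters, 23.6% the PU.1 letters and 12.1% the retinoid receptor unit. Among the other genes, the ALOX5AP stretch held 2 PU.1 matches and 1 retinoid receptor unit, the TBXAS1 stretch 3 PU.1 matches, the PTGES stretch 2 SP1 matches, each of 2 PTGS1 stretches 1 SP1 match and the PTGS2 stretch 1 C/EBP match. The LTA4H and HPGDS stretches held no match. The TBXAS1 stretch (chr7:139829014-139829263) lay inside the RefSeq span of its gene (chr7:139778242-140020293). So did the LTA4H stretch (chr12:96035588-96035837, in chr12:96000753-96043520) and 1 PTGS1 stretch (chr9:122375052-122375301, in chr9:122370533-122395703). These stretches thus precede a start within the gene and not its outermost start. A match describes letters only, and binding was not measured here.

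PLA2G4A (ENSG00000116711) encodes the cytosolic phospholipase A2 that frees arachidonic acid. It stood at 23.9 and 20.9 CPM with the empty vector (22.4 ± 2.12, SD, n = 2) and at 16.2 and 17.3 CPM with JMJD3 (16.7 ± 0.783, SD, n = 2). Both JMJD3 libraries were below both vector libraries. The log2 fold change was −0.42 (SE 0.11, 95% interval −0.69 to −0.15), with an adjusted p of 0.0266 in edgeR's quasi-likelihood test, so that the level was 25.3% lower. The call did not hold without JMJD3 replicate 1 (log2 fold change −0.37, adjusted p = 0.246 in the same edgeR test) or without JMJD3 replicate 2 (−0.47, adjusted p = 0.148), nor with no filter on low counts or with limma on FPKM. Over all alternatives its adjusted p lay between 0.0098 and 0.246. A fit without a JMJD3 library takes its spread between replicates from the vector pair alone, which varied more than the JMJD3 pair (chi-square per degree of freedom 22.0 against 5.18), and genes called lower across the table fell from 2906 to 1416 and 1133 in these fits. A call lost there, for PLA2G4A or another gene, is given as a value. Neither the cause of such a loss nor a dependence of the change on that library was tested.

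ALOX5 encodes 5-lipoxygenase, the enzyme that makes leukotriene A4. It was listed at 0 in both vector libraries and in JMJD3 replicate 2, and at 1 fragment in JMJD3 replicate 1. A count of 0 allows up to 3 fragments, which is between 0.0671 and 0.0925 CPM in these libraries, and such limits cover counting error only. No fold was formed, and ALOX5 RNA was not detectable above this limit in either group. For ALOX5, too, a 0 may be a failed estimate, as described below with CBR1.

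ALOX5AP encodes FLAP, the membrane protein that presents arachidonic acid to 5-lipoxygenase. It was measured at 0.431 and 0.681 CPM with the empty vector and at 1.08 and 0.837 CPM with JMJD3. These values rest on 14 and 25 fragments in the vector libraries and on 40 and 37 fragments in the JMJD3 libraries. The groups did not overlap, but the counts were low and the log2 fold change of 0.78 had a wide interval (95% interval −0.02 to 1.57). Its adjusted p was 0.103 in edgeR's quasi-likelihood test. Without vector replicate 2 the log2 fold change was 1.15 (adjusted p = 0.0484, same edgeR test), whereas without vector replicate 1 it was 0.45 (adjusted p = 0.262), with a range of 0.0484 to 0.436 over all alternatives. A fit without a vector library takes its spread from the JMJD3 pair alone, the less variable pair, so a call gained in such a fit, for ALOX5AP or another gene, is given as a value and is no support.

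LTA4H encodes leukotriene A4 hydrolase, which forms leukotriene B4. Its level was 106 and 107 CPM with the empty vector and 114.0 and 113 CPM with JMJD3. Both JMJD3 libraries were slightly above both vector libraries. The log2 fold change was 0.10 (95% interval −0.09 to 0.28) and did not pass edgeR's quasi-likelihood test (adjusted p = 0.350). The interval leaves room for only small changes of LTA4H at this depth. With a library left out the log2 fold change lay between 0.051 (without vector replicate 1) and 0.11 (without vector replicate 2). Antisense genes share 10.9% and 1.63% of the LTA4H exon bases, and the library kit is not stated to keep strand. Each was listed at a deposited count of 5.71 or less in each library, against 3923 or more for LTA4H. These counts come from the same assignment of fragments to genes, so the part of antisense fragments in LTA4H was not tested.

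LTC4S (ENSG00000213316) encodes leukotriene C4 synthase, which adds glutathione to leukotriene A4 and so commits it to the cysteinyl leukotrienes. It stood at 5.45 and 6.05 CPM with the empty vector (5.75 ± 0.426, SD, n = 2) and at 12.0 and 10.6 CPM with JMJD3 (11.3 ± 0.954, SD, n = 2). Both JMJD3 libraries were well above both vector libraries, and the difference was larger than the spread within either group. The log2 fold change was 0.97 (SE 0.13, 95% interval 0.66 to 1.29), a 1.96-fold increase, with an adjusted p of 0.0030 in edgeR's quasi-likelihood test. Among the 14 alternative fits that give each gene a value, LTC4S was called higher in each that kept 2 libraries per group. Over all 14 fits, which reuse the same 4 libraries, its log2 fold changes lay between 0.83 and 1.06. It was past 2-fold in 3 of them (upper quartile scaling, without vector replicate 2 and without JMJD3 replicate 2) and short of it with all 4 libraries under TMM and in the other 11. Its deposited values were not whole multiples of the unit of their library, so they include fractions of fragments.

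Lane was not balanced, since lane 20 held vector replicate 1 alone and lane 17 held vector replicate 2 with both JMJD3 libraries. The paper describes no lanes, so what these numbers stand for is uncertain. Within lane 17 the log2 fold change was 0.86 for LTC4S (adjusted p = 0.0050, edgeR's quasi-likelihood test) and −0.36 for PLA2G4A (adjusted p = 0.0195, same test). Both genes kept their direction there. That fit assumes that the single vector library varies like the less variable JMJD3 pair, so its calls are no support. In it 4343 genes were higher and 4183 were lower, against 3292 and 2906 with all 4 libraries.

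**Figure D2:**
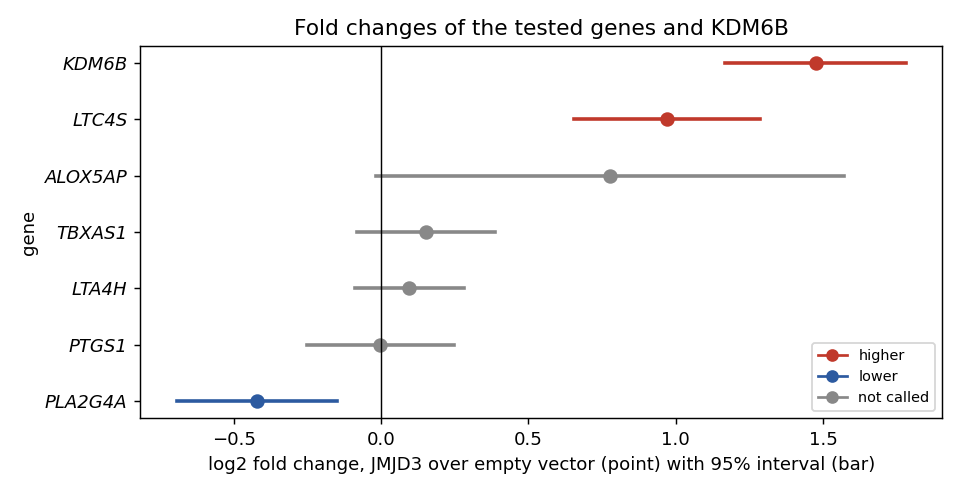
Log2 fold change of JMJD3 over empty vector for the 6 tested synthesis genes and KDM6B (points) with the 95% interval from edgeR's quasi-likelihood fit (bars), 2 libraries per group. The intervals of LTC4S (0.66 to 1.29) and PLA2G4A (−0.69 to −0.15) lie on opposite sides of 0, and that of ALOX5AP reaches from −0.02 to 1.57.

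PTGS1 encodes cyclooxygenase-1, the constitutive enzyme that makes prostaglandin H2. Its level was 12.8 and 13.1 CPM with the empty vector and 13.0 and 12.9 CPM with JMJD3. The groups overlapped, and the log2 fold change of −0.0028 (95% interval −0.25 to 0.25) did not pass edgeR's quasi-likelihood test (adjusted p = 0.983). Its sign turned in 4 of the 14 alternatives. In the deposited FPKM, a level scaled to transcript length and to library depth, PTGS1 read 3.55 and 3.79 with the empty vector and 3.15 and 3.41 with JMJD3. The transcript length implied by counts and FPKM was 1.14 and 1.05 times the vector mean in the JMJD3 libraries. This length is computed from those same values, so it only restates the gap between FPKM and CPM. The cause of the lower FPKM of PTGS1 was not tested.

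PTGS2 encodes cyclooxygenase-2, the inducible form, and HPGDS the synthase of prostaglandin D2 in hematopoietic cells. Both were listed at 0 in all 4 libraries. PTGES, a synthase of prostaglandin E2, was listed at 2 and 1 fragments with the empty vector and at 0 in both JMJD3 libraries. These genes were at or under the limit of 3 fragments, so no fold was formed. A 0 may also be a failed estimate, because CBR1, a broadly expressed carbonyl reductase named here after its values were seen, was likewise listed at 0 in all 4 libraries.

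TBXAS1 encodes thromboxane A synthase. It was measured at 45.0 and 48.9 CPM with the empty vector and at 53.9 and 50.6 CPM with JMJD3. The groups did not overlap, yet their nearest libraries (48.9 and 50.6 CPM) lay closer together than the 2 libraries of either group. The log2 fold change was 0.15 (95% interval −0.08 to 0.39), with an adjusted p of 0.245 in edgeR's quasi-likelihood test. With a library left out it lay between 0.057 (without vector replicate 1) and 0.22 (without vector replicate 2).

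The genes differed in level much more than they differed between groups. On the per-length scale, mean FPKM over the 4 libraries was 57.2 for LTA4H, 35.3 for TBXAS1, 23.5 for LTC4S, 7.48 for PLA2G4A, 3.47 for PTGS1 and 1.19 for ALOX5AP. This order held in each library, and neighbours in it did not overlap in FPKM in either group. LTA4H lay at percentile 85.1 of mean FPKM among all tested genes and ALOX5AP at percentile 20.7. In the empty vector libraries LTC4S was at 16.0 and 17.3 FPKM, and in the JMJD3 libraries it was at 31.4 and 29.2 FPKM, which brought it nearer to TBXAS1 (37.1 and 37.4 FPKM with JMJD3). Terminal enzymes lay on both sides of PTGS1, with LTA4H, LTC4S and TBXAS1 above it. PTGES lay far below it, at 0.0406 and 0.0185 FPKM with the empty vector and 0 with JMJD3. HPGDS was listed at 0 in all 4 libraries, and a 0 may be a failed estimate. ALOX5 was at 0.0769 FPKM in the only library where it was listed above 0.

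**Figure D3:**
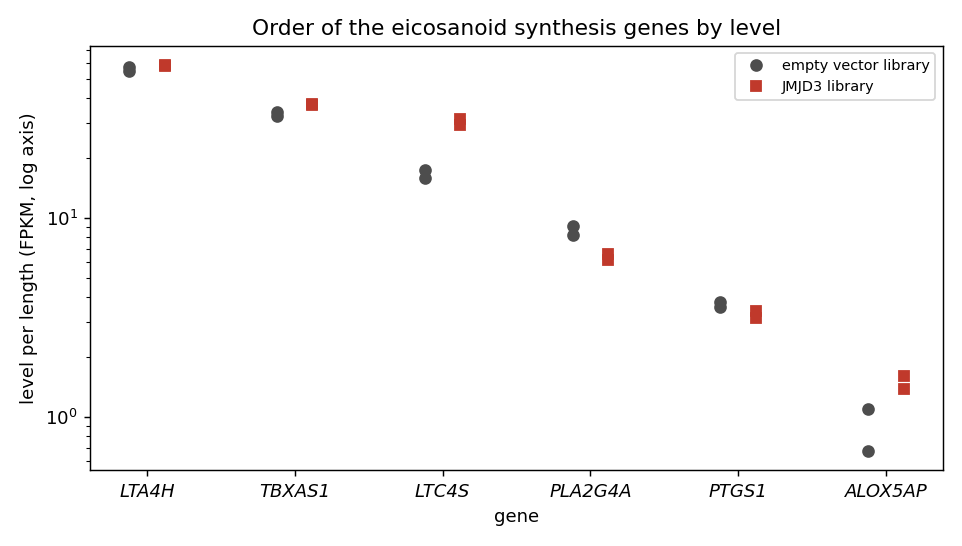
Level per length of the 6 tested synthesis genes in FPKM (log axis), with 1 point per library, ordered by the mean over the 4 libraries. LTA4H is highest at 57.2 FPKM and ALOX5AP lowest at 1.19 FPKM, and LTC4S separates the groups most clearly.

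Other genes of eicosanoid biology were read from lists of 59 genes, of which 31 were tested. With edgeR's quasi-likelihood test at an adjusted p under 0.05, 7 were higher with JMJD3, 9 were lower and 15 were not called, against 21.6% higher and 19.1% lower over all tested genes, shares that also stand beside the counts of each list below. DESeq2 called 7 higher and 8 lower, and limma on log2(FPKM + 1) called 7 and 6. The median log2 fold change over the 31 genes was −0.05, against 0.04 over all tested genes. With edgeR a change of at least 2-fold was found for 5 genes (GGT5, DPEP2, PTGER1, PTGDR2 and SLCO2A1), each of them higher, against 5 with DESeq2 and 3 with limma. Over all tested genes 7.55% were higher and 2.82% lower by this rule, so few lower genes would be found among any 31. The plot of fold changes by list shows the genes that were called.

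**Figure D4:**
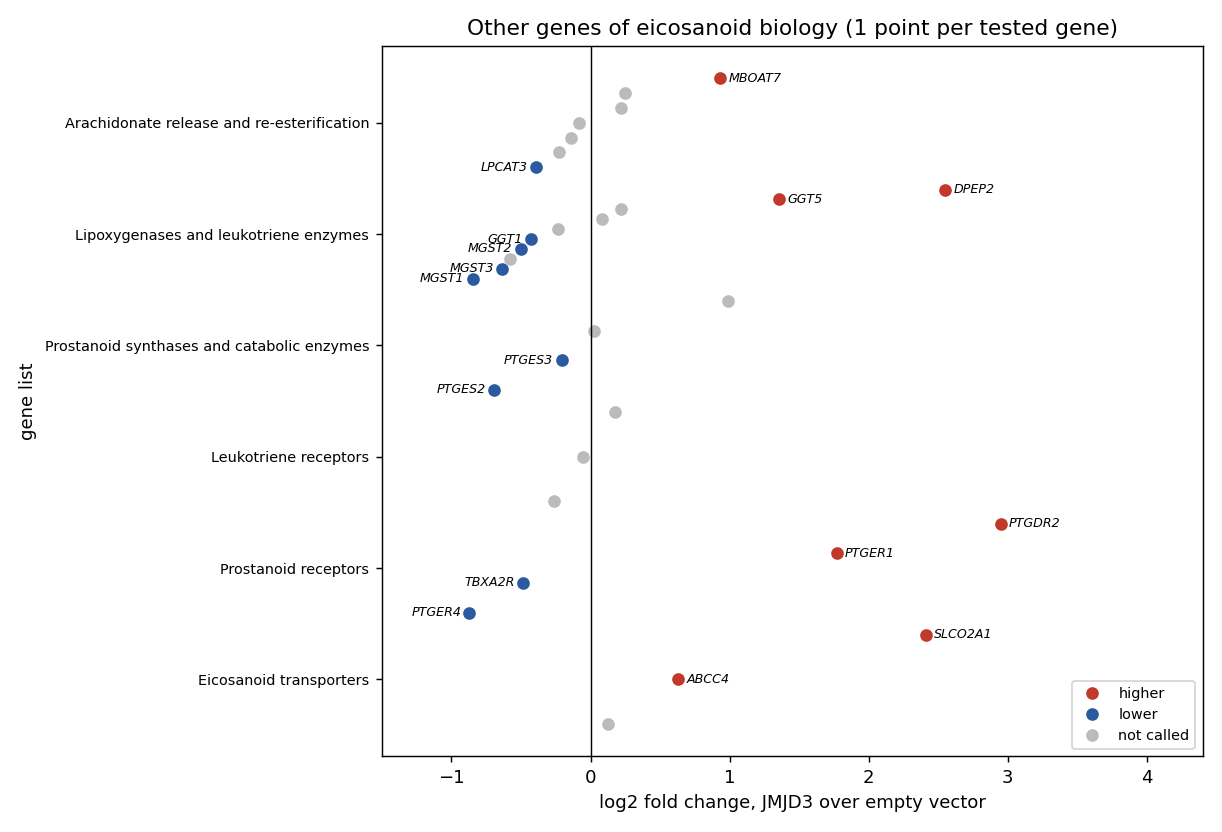
Log2 fold change of JMJD3 over empty vector for the 31 tested genes of the 6 eicosanoid lists, with 1 point per gene and names on the genes called by edgeR's quasi-likelihood test. The 5 genes past 2-fold all lie to the right, with PTGDR2 at 2.95, and the lower genes stay within 2-fold.

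Among genes for release and re-esterification of arachidonate, 7 of 17 were tested, with 1 higher and 1 lower. MBOAT7, which places arachidonate into phosphatidylinositol, was at 66.7 and 72.5 CPM with the empty vector and at 134 and 132 CPM with JMJD3. It rose by 0.93 on the log2 scale (SE 0.09, adjusted p = 0.0012, edgeR's quasi-likelihood test). LPCAT3, which places arachidonate into phosphatidylcholine, fell by 0.39 (adjusted p = 0.0138, same test), a call that was lost at a similar size without JMJD3 replicate 1 (−0.43, adjusted p = 0.142, edgeR) and without JMJD3 replicate 2 (−0.36, adjusted p = 0.244, edgeR, with a lowest value of 0.0025 over the alternatives). ANXA1, a protein known to restrain phospholipase A2, had a log2 fold change of −0.14 (adjusted p = 0.290, edgeR) and passed the same edgeR test without vector replicate 1 (−0.24, adjusted p = 0.0321, against up to 0.783 in other alternatives).

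The list of lipoxygenases and leukotriene enzymes had 10 of 15 genes tested, with 2 higher and 4 lower. GGT5 and DPEP2, the 2 that rose, act after LTC4S: the first removes glutamate from leukotriene C4 and the second cleaves leukotriene D4. GGT5 was at 4.72 and 5.66 CPM with the empty vector and at 14.0 and 12.5 CPM with JMJD3, a log2 fold change of 1.35 (SE 0.14, adjusted p = 0.0017, edgeR's quasi-likelihood test). DPEP2 was at 0.189 and 0.0786 CPM with the empty vector and at 0.863 and 0.729 CPM with JMJD3, a log2 fold change of 2.55 (SE 0.45, adjusted p = 0.0067, edgeR). The DPEP2 estimate rested on few fragments, and it was 3.25 without vector replicate 1, 2.06 without vector replicate 2 and only 0.78 with limma on log2(FPKM + 1), where the added 1 shrinks changes at low levels.

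GGT1, the widely expressed relative of GGT5, moved the other way, and its counts are uncertain because near-identical copies of it exist. It was at 51.1 and 64.6 FPKM with the empty vector, above GGT5 at 3.77 and 4.32 FPKM, and in the JMJD3 libraries it was still above GGT5, at 44.1 and 39.9 FPKM against 13.2 and 11.1 FPKM. Its log2 fold change was −0.43 (SE 0.10, adjusted p = 0.0159, edgeR's quasi-likelihood test), and its call was lost in 5 of the 14 alternatives, among them those without JMJD3 replicate 1 (−0.45, adjusted p = 0.125, edgeR) and without JMJD3 replicate 2 (−0.40, adjusted p = 0.194, edgeR, with a lowest value of 0.0024 over the alternatives). MGST1, the most abundant gene of the list by FPKM, was at 133 and 143 CPM with the empty vector and at 80.1 and 73.6 CPM with JMJD3, a log2 fold change of −0.85 (adjusted p = 0.0018, edgeR). MGST2, which can also make leukotriene C4, and MGST3 had log2 fold changes of −0.50 (adjusted p = 0.0185) and −0.64 (adjusted p = 0.0077) in the same edgeR test, and both were named after their values were seen. The call of MGST2 was lost with no filter on low counts, without JMJD3 replicate 1 (−0.56, adjusted p = 0.0757, edgeR) and without JMJD3 replicate 2 (−0.44, adjusted p = 0.189, edgeR, with a lowest value of 0.0052 over the alternatives). COTL1, which binds 5-lipoxygenase, had a log2 fold change of −0.23 (adjusted p = 0.0645, edgeR), and of −0.33 without vector replicate 1 (adjusted p = 0.0066, edgeR, against up to 0.439 in other alternatives).

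Of 10 prostanoid synthases and catabolic enzymes, 4 were tested and 2 were lower. PTGES2, a membrane-associated prostaglandin E synthase, was at 144 and 166 CPM with the empty vector and at 99.2 and 92.2 CPM with JMJD3. Its log2 fold change was −0.69 (SE 0.10, adjusted p = 0.0034, edgeR's quasi-likelihood test). PTGES3, the cytosolic synthase that is also a co-chaperone, had a log2 fold change of −0.21 (adjusted p = 0.0478, edgeR), and its call was lost in 10 of the 14 alternatives, among them those without JMJD3 replicate 1 (−0.22, adjusted p = 0.342, edgeR) and without JMJD3 replicate 2 (−0.19, adjusted p = 0.437, edgeR, with a lowest value of 0.0173 over the alternatives). PTGR2, a reductase of prostaglandin breakdown, was at 8.55 and 7.52 CPM against 8.23 and 8.10 CPM, and its log2 fold change of 0.02 turned sign with DESeq2 size factors, with the DESeq2 Wald test and without vector replicate 2. PRXL2B, a prostamide and prostaglandin F synthase named after its values were seen, read higher with JMJD3 without overlap of the groups, with a log2 fold change of 0.99 (SE 0.35) that did not pass edgeR's test (adjusted p = 0.0611, with a range of 5.8e-04 to 0.187 over the alternatives). It was called in 4 of the 14 alternatives, of which only the replicate block kept 2 libraries in each group. The others left 1 library in a group, so their calls are no support. Its log2 fold change was 1.74 without vector replicate 2 and 0.47 without vector replicate 1. It was 1.04 without JMJD3 replicate 1 and 0.94 without JMJD3 replicate 2. AKR1C3 was not tested, and its values are uncertain because the table splits near-identical genes and holds this symbol under 2 identifiers.

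None of the 3 tested leukotriene receptors (of 5) was called by edgeR, DESeq2 or limma, and 1 of them had an unadjusted p under 0.05 in edgeR. This was LTB4R, the high-affinity receptor for leukotriene B4, at 41.6 and 47.2 CPM with the empty vector and 37.4 and 36.8 CPM with JMJD3 (log2 fold change −0.26, adjusted p = 0.0904, edgeR's quasi-likelihood test). Without vector replicate 1 LTB4R passed the same edgeR test (−0.39, adjusted p = 0.0069, against up to 0.483 in other alternatives). LTB4R2, the low-affinity receptor, and CYSLTR1, a receptor for cysteinyl leukotrienes, had overlapping groups, with log2 fold changes of 0.17 and −0.05. Without vector replicate 1 LTB4R2 passed edgeR's test (0.36, adjusted p = 0.0415, against up to 0.876 in other alternatives) and CYSLTR1 read 0.10, and without vector replicate 2 LTB4R2 read −0.022.

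All 4 tested prostanoid receptors (of 9) were called, 2 in each direction, against 21.6% higher and 19.1% lower over all tested genes. PTGDR2, the prostaglandin D2 receptor of basophils and eosinophils also known as CRTH2, was at 0.863 and 1.49 CPM with the empty vector and at 9.31 and 8.96 CPM with JMJD3. Both JMJD3 libraries were far above the vector libraries, by 2.95 on the log2 scale (SE 0.23, adjusted p = 9.7e-04, edgeR's quasi-likelihood test), a 7.72-fold increase, and by 1.61 with limma on log2(FPKM + 1). PTGDR, the other prostaglandin D2 receptor, and HPGDS, which makes this ligand, were listed at 0 in all 4 libraries. PTGDS, the other prostaglandin D2 synthase, had too few counts to be tested, at 0 fragments in both vector libraries and 9 and 6 fragments with JMJD3, and was named after its values were seen. PTGER1, a prostaglandin E2 receptor, rose by 1.77 (SE 0.48, adjusted p = 0.0267, edgeR) from 0.135 and 0.419 CPM to 0.810 and 1.11 CPM. Its counts were low, its log2 fold change was 1.15 without vector replicate 1, 2.80 without vector replicate 2 and 0.57 with limma on log2(FPKM + 1), and its call was lost with no filter on low counts (adjusted p = 0.0954, edgeR, with a lowest value of 2.8e-04 over the alternatives).

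The receptors that fell were those with the higher FPKM of the 4. TBXA2R, the thromboxane receptor, was at 162 and 181 CPM with the empty vector and at 126 and 119 CPM with JMJD3, a log2 fold change of −0.48 (SE 0.09, adjusted p = 0.0077, edgeR's quasi-likelihood test) whose call was lost without JMJD3 replicate 2 (−0.44, adjusted p = 0.0824, edgeR, with a lowest value of 1.9e-04 over the alternatives). PTGER4, another prostaglandin E2 receptor, was at 63.9 and 49.2 CPM with the empty vector and at 30.1 and 31.8 CPM with JMJD3, a log2 fold change of −0.87 (SE 0.14, adjusted p = 0.0051, edgeR). In FPKM the PTGER4 groups overlapped, at 38.8 and 17.9 with the empty vector and 18.5 and 18.3 with JMJD3, and limma on log2(FPKM + 1) and log2(FPKM + 0.1) did not call it (−0.50 and −0.51).

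All 3 eicosanoid transporters were tested and 2 of them were higher. SLCO2A1, the prostaglandin uptake carrier, was at 1.27 and 1.34 CPM with the empty vector and at 6.64 and 7.23 CPM with JMJD3. It rose by 2.41 on the log2 scale (SE 0.16, adjusted p = 5.7e-04, edgeR's quasi-likelihood test), and both JMJD3 libraries were far above both vector libraries, but it rose by 1.25 with limma on log2(FPKM + 1). ABCC4, an exporter of prostaglandins, rose by 0.63 (SE 0.11, adjusted p = 0.0067, edgeR). ABCC1, the exporter of leukotriene C4, was the most abundant transporter by FPKM and had overlapping groups, with a log2 fold change of 0.12 (adjusted p = 0.338, edgeR).

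Marker lists of cell types are given beside these genes, whether or not their members were called. For mast cells, basophils and eosinophils, the cells known for LTC4S and PTGDR2, all 8 tested markers of 11 were higher by edgeR's quasi-likelihood test, 6 of them at least 2-fold, against 21.6% and 7.55% of all tested genes. DESeq2 and limma each called 7 of the 8 higher, at least 2-fold for 6 and 4 of them. The list was not uniform, since CPA3, a mast cell protease gene with too few counts to be tested, was listed at 8 and 9 fragments with the empty vector and at 0 in both JMJD3 libraries. CLC, also untested, was listed at 1 and 1 fragments against 11 and 5, and CPA3 and CLC were named after their values were seen. The summed level of the list was 279 and 302 CPM with the empty vector and 1288 and 1158 CPM with JMJD3. The most abundant by FPKM was the eosinophil granule protein gene PRG2 (180.3 and 206 CPM against 837 and 721 CPM), while FCER1A, the alpha chain of the high-affinity IgE receptor, was listed at 0. HDC, which makes histamine and was named after its values were seen, rose by 3.46 on the log2 scale (adjusted p = 3.2e-05, edgeR). The part of this shift in the LTC4S and PTGDR2 results was not tested, and more cells of a type cannot be told apart from more RNA per cell in these bulk libraries.

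Of the promyelocyte markers, which belong to the labelled cell type, MPO was the most abundant by FPKM and stood at 13869 and 14103 CPM with the empty vector and 9373 and 9415 CPM with JMJD3. Of the 6 tested (of 7), 4 were lower, 2 of them at least 2-fold, and 2 were higher by edgeR's quasi-likelihood test, against 19.1%, 2.82% and 21.6% of all tested genes. DESeq2 called 1 of the 6 higher and 4 lower, and limma called 0 higher and 4 lower. With each of these, 2 of the lower genes were at least 2-fold lower. The 2 past 2-fold, both named after their values were seen, were CTSG, at 144 and 164 CPM against 10.96 and 9.61 CPM (log2 fold change −3.91), and PRTN3 (log2 fold change −1.81). The 2 that edgeR called higher, also named after their values were seen, were CD33 and ANPEP. CD33 had a log2 fold change of 0.29 (adjusted p = 0.0380, edgeR) and ANPEP 0.31 (adjusted p = 0.0128, edgeR). The summed level of the list was 17486 and 18323 CPM against 11627 and 11599 CPM, most of it from MPO. ELANE, a defining granule protease gene, was nearly absent at deposited counts of 12.6 and 7.33 with the empty vector and 0.993 and 1.66 with JMJD3. Among monocyte and macrophage markers 1 of 4 tested (of 6) was higher, and at least 2-fold, with each of edgeR, DESeq2 and limma. The most abundant by FPKM was CSF1R, at 4.93 and 3.85 CPM against 12.9 and 12.9 CPM. The summed level of this list was 7.25 and 5.92 CPM against 15.8 and 15.7 CPM.

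Among platelet and megakaryocyte markers, cells known for TBXAS1, 1 of 2 tested (of 6) was higher with edgeR and with DESeq2, and 0 with limma. The 1 called was at least 2-fold higher with edgeR and with DESeq2, against 7.55% of all tested genes with edgeR. Their summed level was only 2.70 and 1.99 CPM with the empty vector and 3.70 CPM in both JMJD3 libraries, GP1BA was the most abundant by FPKM, and GP9 and PF4 were listed at 0. Among neutrophil maturation markers 2 of 5 tested (of 8) were higher with edgeR, 1 of them at least 2-fold. The gene past 2-fold was CAMP, at only 2 and 4 fragments with the empty vector and 15 and 13 with JMJD3. The other was ITGAM (log2 fold change 0.59), and both were named after their values were seen. DESeq2 and limma each called 1, and 0 at least 2-fold. Their summed levels were 133 and 143 CPM against 156 and 157 CPM, and MMP8 and FCGR3B were listed at 0. CSF3R, the most abundant by FPKM, had a log2 fold change of 0.26 (adjusted p = 0.0551, edgeR's quasi-likelihood test). It passed the same edgeR test with upper quartile scaling (0.29, adjusted p = 0.0458) and with at least 10 counts in every library (0.27, adjusted p = 0.0477). It read 0.18 without vector replicate 1 and 0.30 without vector replicate 2. Neither tested lymphoid marker (of 5) was called by edgeR, DESeq2 or limma, and 0 had an unadjusted p under 0.05 in edgeR. The lymphoid sum was 86.9 and 105 CPM against 89.7 and 86.3 CPM, nearly all from NKG7, and MS4A1 was listed at 0. NKG7 had a log2 fold change of −0.12 (adjusted p = 0.418, edgeR's quasi-likelihood test). It read −0.29 without vector replicate 1 and 0.031 without vector replicate 2. The hemoglobin genes HBB and HBA1 were listed at 0 in all 4 libraries. The part of these lists in the results was not tested.

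**Figure D5:**
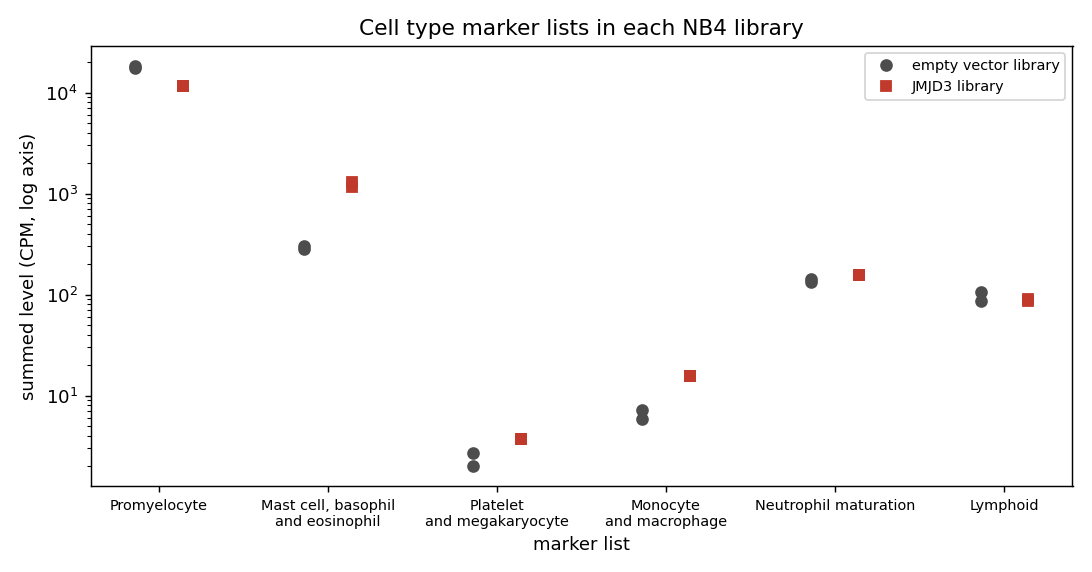
Summed level of each marker list in CPM (log axis), with 1 point per library and the groups side by side. The mast cell, basophil and eosinophil list lies at 279 and 302 CPM with the empty vector and at 1288 and 1158 CPM with JMJD3. The promyelocyte sum, most of it from MPO, is lower with JMJD3.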

How the data were processed

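RNA of NB4 cells with the empty vector or with JMJD3 had been prepared with a TruSeq RNA kit, 2 libraries per group. The authors deposited estimated counts and FPKM per gene and library. The labels' processing notes name CASAVA 1.8, TopHat2 2.0.4, RSEM, edgeR and GRCh38, while the study's methods name STAR, hg19, HTSeq-count and DESeq2, so the origin of the values is uncertain. Labels and methods also differ in medium and RNA extraction. Of nonzero deposited counts, 98.4% were not whole (tolerance 1e-06). In each library 92.9% to 93.4% of values up to 1000 units were whole multiples (tolerance 0.01) of the commonest value above 0, which was 1.14, 1.05, 0.993 and 0.829 in vector replicates 1 and 2 and JMJD3 replicates 1 and 2. The deposited counts thus carry 1 scale factor per library, and a fragment here is a count divided by it. The authors' columns of fold changes, p-values and group means were not used.

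Deposited counts were rounded, filtered with filterByExpr (15246 of 60662 genes kept), given TMM factors and fitted without covariates in edgeR 4.0.16 under R 4.3.3 (glmQLFit, glmQLFTest). P-values were Benjamini-Hochberg adjusted over all tested genes, with calls at 0.05. The SE was the log2 fold change divided by the square root of F. The fit was tested on simulated data. Replicates differed by more than sampling noise (chi-square per degree of freedom 22.0 for vector and 5.18 for JMJD3). Alternatives were DESeq2 1.42.0 (size factors and Wald test), upper quartile scaling, log2(FPKM + 1) or log2(FPKM + 0.1) in limma 3.58.1, no filter, at least 10 counts in every library, a 2-fold minimum, a replicate block and each library left out. Chosen after seeing the data were limma on centred log2(TPM + 0.1), counts with the scale factor removed, and a crossed block. The rule named all synthesis genes, KDM6B, list genes past 2-fold, the up to 3 most abundant tested genes of each pathway list, and the most abundant marker and markers at 0. The synthesis genes and the lists were chosen with earlier results of these data known. Where a symbol had 2 identifiers, that in GENCODE was used. A marker of these lists is not reported here.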

Additional observations from a re-analysis of the deposited data

How the results depend on the processing

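In the 14 alternative fits that give each gene a value (the 2-fold minimum and the crossed block are counted apart), LTC4S and KDM6B kept direction, and LTA4H and TBXAS1 were called in none. LTC4S and KDM6B kept their call in each of these fits that had 2 libraries per group. With each library left out in turn, log2 fold changes ranged from 0.45 to 1.15 for ALOX5AP (called at 1.15 without vector replicate 2), from −0.51 to −0.36 for PLA2G4A and from −0.056 to 0.014 for PTGS1 (0.0017 without JMJD3 replicate 2). PTGS1 also turned sign with upper quartile scaling (0.035) and with at least 10 counts in every library (0.0066). PLA2G4A was not called with limma on log2(FPKM + 1) (−0.39), on log2(FPKM + 0.1) (−0.44) or on centred log2(TPM + 0.1) (−0.43), nor with no filter (−0.42). The synthesis genes called lower were then 0, as they were without either JMJD3 library and at 2-fold, where 0 were called higher. Leaving out libraries gave 1 to 2 called higher and 0 to 1 called lower.

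Genes called higher across the table were 2046 and 2032 with limma on FPKM, 1998 on TPM, 1893 with no filter, 1151 at 2-fold and 1920 to 4343 with a library left out. Genes called lower were 1776 with no filter, 430 at 2-fold and 1133 to 4183 with a library left out. Pathway list genes called lower were 0 at 2-fold and 4 to 12 with a library left out. The loss of calls at 2-fold follows from the stricter rule, and other causes were not tested. Uncentred TPM moved the median gene by 0.46, so TPM changes are relative to that shift. Removing the library scale factor gave 3303 higher and 2915 lower.

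Among 33 other named genes (CD33, ANPEP, CAMP and ITGAM not included), 415 of 460 values kept direction and call, 25 lost the call, 12 gained it and 8 turned sign. The values that turned were PTGR2 (−0.0089 with DESeq2 size factors, −0.0089 with the Wald test, −0.065 to 0.081 with a library left out), CYSLTR1 (−0.22 to 0.10 with a library left out, 0.012 without JMJD3 replicate 1), LTB4R2 (−0.022 to 0.36), GP1BA (−0.14 to 0.49) and NKG7 (−0.29 to 0.031), with the turn of the last 3 found without vector replicate 2.

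The labels tie the replicate numbers to nothing shared, and deviations of replicate 1 from the group means correlated at −0.25 across 15246 genes, which are not independent replicates. With a replicate block 3267 genes were higher and 2415 lower, LTC4S had a log2 fold change of 0.97 and PLA2G4A −0.42, and no call of a synthesis gene changed. With crossed numbers 4335 were higher and 3772 lower. ALOX5, PTGS2, HPGDS and PTGES had too few fragments for a test, for a cause that was not tested, and ALOX5AP rests on 14 to 40 fragments per library.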
